A study of Homo sapiens with 12 samples.

Results

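The nuclear genes for the subunits of oxidative phosphorylation were followed in 2 melanoma cell lines treated with vemurafenib, an inhibitor of the mutant BRAF kinase that drives these lines. Members were chosen by gene symbol alone, as names beginning with NDUF and a subunit letter, SDHA to SDHD, UQCR, COX4 to COX8 and ATP5. Symbols with a hyphen (2 readthrough genes) or ending in P and a number (2 pseudogenes) were left out, and a symbol had to reach a mean of 1 FPKM in some group. FPKM is a count of fragments scaled to transcript length and to the size of the library. Of 91 symbols that matched, 87 remained, and 78 of these passed the level minimum, out of 23273 genes in the tables. By symbol, 37 belonged to complex I, 4 to complex II, 8 to complex III, 12 to complex IV and 17 to complex V. The symbols of 4 members do not name subunits: COX4NB (now EMC8), ATP5S, ATP5SL and COX7A2L, which leaves 74 subunit genes. NDUFA4 is counted with complex I by its symbol, although it is now known as a subunit of complex IV.

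The experiment comprised 12 RNA-seq libraries, with 2 replicate plates for each of 3 conditions in COLO858 and in MMACSF. Cells of both lines were treated with DMSO, the vehicle, or with 0.2 μM vemurafenib for 24 or 48 h. Both lines carry mutant BRAF and are sensitive to the drug, and COLO858 was studied for its adaptation to it, with MMACSF as the comparison. How long the DMSO plates were kept is not labelled, and 1 pair of DMSO libraries per line served as the control for both times. Each line is a single culture line in a dish, and nothing beyond separate plates says that replicates were independent cultures, so p-values measure the spread between these plates, which may be technical.

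Oxidative phosphorylation takes place in the inner membrane of mitochondria. Complexes I and II pass electrons from NADH and succinate to ubiquinone, complex III passes them to cytochrome c, and complex IV passes them to oxygen. Complexes I, III and IV pump protons, and complex V, the ATP synthase, lets them flow back through a rotating ring of c subunits to make ATP. Most subunits are encoded in the nucleus and imported, and a few are encoded in mitochondrial DNA. In melanoma the coactivator PPARGC1A (PGC-1α), a target of the melanocyte factor MITF, is known to raise the expression of many of these genes, and the promoters of many of its genes hold sites for the factors NRF1, GABP (an ETS factor) and YY1. None of the 13 genes of mitochondrial DNA was present in the tables, so only the nuclear part was measured.

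The 3 genes ATP5G1, ATP5G2 and ATP5G3 (now ATP5MC1, ATP5MC2 and ATP5MC3) encode the same mature c subunit, and ATP5G1 had the largest change of all members. The last 75 codons of their reading frames are shown because they cover the mature protein and show how far the 3 mRNAs can be told apart by sequencing. The sequences are from GENCODE transcripts lifted to GRCh37, at chr17:46972584-46973128 on the plus strand for ATP5G1, chr12:54059101-54063044 on the minus strand for ATP5G2 and chr2:176043019-176043897 on the minus strand for ATP5G3. Each stretch lies in 2 coding exons, and the coordinates include the intron between them. Capitals mark the 52 of 225 positions that are not identical in all 3.
ATP5G1: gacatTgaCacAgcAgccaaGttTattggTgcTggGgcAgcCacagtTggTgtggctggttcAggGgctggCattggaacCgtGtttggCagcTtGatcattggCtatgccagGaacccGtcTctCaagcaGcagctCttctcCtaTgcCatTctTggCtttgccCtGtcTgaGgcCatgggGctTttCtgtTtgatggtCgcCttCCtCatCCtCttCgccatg
ATP5G2: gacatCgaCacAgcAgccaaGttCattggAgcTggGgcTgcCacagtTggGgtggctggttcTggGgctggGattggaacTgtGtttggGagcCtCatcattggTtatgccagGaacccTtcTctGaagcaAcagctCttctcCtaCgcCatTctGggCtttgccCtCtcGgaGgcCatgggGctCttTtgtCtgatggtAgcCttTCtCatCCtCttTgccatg
ATP5G3: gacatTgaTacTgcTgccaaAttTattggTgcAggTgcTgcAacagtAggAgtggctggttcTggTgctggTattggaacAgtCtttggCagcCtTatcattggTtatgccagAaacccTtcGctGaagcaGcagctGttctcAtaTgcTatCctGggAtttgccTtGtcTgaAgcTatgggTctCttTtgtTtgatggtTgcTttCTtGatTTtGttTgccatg
All 75 codons encode the same residues in the 3 genes. ATP5G1 and ATP5G2 shared 200 of 225 bases (88.9%), and ATP5G3 shared 183 bases (81.3%) with each of them. Over the whole canonical transcripts no stretch of 50 bases, the length of the reads, was shared between any pair. An exact read can therefore be assigned to 1 of the 3 genes, although 8 pseudogenes named after ATP5G1 are annotated in the genome.

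The promoters of members were searched for 3 motifs of these factors, since most members were lower together in MMACSF. The motifs were GCGCA and GCGC separated by any 1 base (NRF1), CCGGAAG (ETS) and AAGATGGCG (YY1), on both strands of RefSeq windows (GRCh38.p14) from 250 bases before to 50 bases after the start of transcription. A window was found for 65 of the 78 members. The NRF1 motif was present in 15 of them (23.1%), beside 8.58% of 15843 promoters. Those promoters are of protein-coding genes and, unlike the members, were not limited to genes expressed in these lines. The ETS motif was present in 20 (30.8%, beside 14.2%) and the YY1 motif in 8 (12.3%, beside 2.74%), and no matches of different motifs overlapped in a member. Of the 13 members called lower at 48 h in MMACSF (described by complex further on), 9 had a window, and 5 of these held the NRF1 motif, 4 the YY1 motif and 2 the ETS motif. The 120 bases before the start are printed for the 6 of them with a motif in that stretch, and for ATP5G1, the member with the largest fall, which had none of the 3 in the whole window. Capitals mark the matches, and the coordinates are exact matches of these bases in GRCh37: chr10:7830020-7830139 (plus strand) for ATP5C1, chr12:95397474-95397593 (minus) for NDUFA12, chr12:4758160-4758279 (plus) for NDUFA9, chr3:48647080-48647199 (minus) for UQCRC1, chr19:29704059-29704178 (minus) for UQCRFS1, chr21:27107366-27107485 (minus) for ATP5J and chr17:46970029-46970148 (plus) for ATP5G1.
ATP5C1: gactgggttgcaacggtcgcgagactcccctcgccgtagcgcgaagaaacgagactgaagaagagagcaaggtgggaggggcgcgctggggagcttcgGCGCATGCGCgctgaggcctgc
NDUFA12: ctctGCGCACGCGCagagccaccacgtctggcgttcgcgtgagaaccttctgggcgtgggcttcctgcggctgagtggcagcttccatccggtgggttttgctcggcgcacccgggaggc
NDUFA9: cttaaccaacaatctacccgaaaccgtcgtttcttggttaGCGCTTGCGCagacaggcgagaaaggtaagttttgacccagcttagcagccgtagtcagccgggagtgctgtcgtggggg
UQCRC1: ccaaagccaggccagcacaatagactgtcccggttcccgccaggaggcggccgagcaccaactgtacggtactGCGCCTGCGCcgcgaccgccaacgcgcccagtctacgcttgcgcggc
UQCRFS1: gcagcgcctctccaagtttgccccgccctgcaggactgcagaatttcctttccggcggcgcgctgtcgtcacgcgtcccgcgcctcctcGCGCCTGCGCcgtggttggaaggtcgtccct
ATP5J: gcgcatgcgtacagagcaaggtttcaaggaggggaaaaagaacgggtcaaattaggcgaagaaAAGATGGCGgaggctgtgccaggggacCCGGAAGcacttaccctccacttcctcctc
ATP5G1: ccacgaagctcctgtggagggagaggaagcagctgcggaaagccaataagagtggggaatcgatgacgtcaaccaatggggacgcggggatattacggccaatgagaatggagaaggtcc
The capitals are NRF1 matches in the first 5, and the YY1 match followed by the ETS match in ATP5J. At 48 h in MMACSF the median log2 fold-change was -0.55 for members with the NRF1 motif and -0.43 for those without it. It was -0.75 with and -0.43 without the YY1 motif, and -0.38 with and -0.55 without the ETS motif. In COLO858 at 48 h the medians were -0.20 with and -0.19 without the NRF1 motif. They were -0.38 and -0.18 for the YY1 motif, and -0.22 and -0.18 for the ETS motif. These are descriptions of letters in a window, and binding of the factors was not measured.

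Under DMSO the median level of the members was 159 FPKM in COLO858 and 126 FPKM in MMACSF, and 58 and 51 of the 78 stood at 100 FPKM or more. Levels are compared within a line only, since the scaling between the tables is not stated. Complex IV had the highest median level in both lines (555 FPKM in COLO858 and 297 FPKM in MMACSF), and complex II the lowest (67.2 and 87.4 FPKM). The most abundant member was ATP5E (now ATP5F1E), the epsilon subunit of the F1 head, with 3012 FPKM in COLO858 and 1942 FPKM in MMACSF under DMSO. It made up 39.0% of the summed FPKM of complex V in COLO858 and 27.4% in MMACSF. The highest levels in the other complexes were those of COX7C in complex IV, UQCRH in complex III and SDHB in complex II. NDUFB2 led complex I in COLO858 and NDUFA13 in MMACSF.

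The level minimum split the symbols cleanly. The lowest member, ATP5S, reached a group mean of 9.26 FPKM and the next, COX4NB, 27.7 FPKM, while the highest symbol left out, COX6B2, reached 0.803 FPKM. The 9 symbols left out were ATP5L2, COX4I2, COX6A2, COX6B2, COX7A1, COX7B2, COX8C, NDUFA4L2 and UQCRHL, mostly isoforms known from muscle, lung or testis. COX4I2, COX7A1, COX7B2 and COX8C were listed at 0 in all 12 libraries. NDUFA4L2, a hypoxia-induced isoform, was listed at 1.25 and 0.326 FPKM under DMSO in COLO858 and at 0 to 0.285 FPKM in its drug-treated libraries. The tissue-restricted isoforms were thus at or near 0 in both lines, with and without drug.

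The libraries summed to 670310 to 1013038 FPKM, of which the microRNA gene MIR4461 alone took 14.1% to 43.4%, so the sums do not measure depth, which is unknown. The members took 1.38% to 3.16% of the sum. Of 10 genes that report MAPK pathway output, 8 were called lower in each line at each drug time, as a check of the drug. Of 8 melanocyte markers, 8 reached 1 FPKM in MMACSF and 6 in COLO858 under DMSO, where MLANA stood at 0.425 and 0.438 FPKM and TYR at 0.385 and 0.690 FPKM. Of 9 markers of blood, endothelial and epithelial cells, CD68 was the only one at 1 FPKM or more, and the other 8 together summed to at most 1.27 FPKM in any library. The sum of the 9 was 12.5 to 15.1 FPKM under DMSO and 4.66 to 5.68 FPKM at 48 h in COLO858, and 79.7 to 85.5 and 77.4 to 84.2 FPKM in MMACSF. The summed melanocyte markers went from 702 to 717 FPKM under DMSO to 4144 to 4149 FPKM at 48 h in COLO858, and from 11159 to 11373 FPKM to 16831 to 17555 FPKM in MMACSF, and the part of these shifts in the results was not tested. In bulk RNA, fewer cells of a kind and less RNA per cell cannot be told apart.

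In COLO858 after 24 h the nuclear OXPHOS genes were spread evenly around their DMSO levels, and ATP5E passed the test. The median log2 fold-change of FPKM + 1 over the 78 members was 0.02, beside 0.06 over all 12696 genes tested. At an adjusted p under 0.01 (limma, Benjamini-Hochberg over all genes) 1 member was called lower and none higher, where 5.71% of all genes were called lower and 4.11% higher. At an unadjusted p under 0.05 there were 5 lower and 4 higher, beside 19.5% and 20.8% of all genes, and 44 of the 78 were above 0, beside 53.8%. The summed FPKM was 99.6% of the DMSO mean for complex I, 103% for complex II, 95.6% for complex III and 101% for complex IV. For complex V it was 80.2%, and 95.8% once ATP5E was left aside. Under another scaling, with the libraries set to equal sums without small RNA genes, these sums were 110.4% to 119% without ATP5E, and that scaling moved the median of all genes in COLO858 from 0.06 to 0.24.

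ATP5E was the member that fell at 24 h in COLO858. It stood at 3101 and 2923 FPKM under DMSO, 1674 and 1687 FPKM at 24 h, and 1489.7 and 1490.4 FPKM at 48 h. The 4 drug-treated libraries were all far below the pair under DMSO, and the replicates lay close together. The log2 fold-change was -0.84 ± 0.09 (SE, adjusted p = 0.0039) at 24 h and -1.01 ± 0.09 (adjusted p = 0.0026) at 48 h. In MMACSF it stood at 2113 and 1772 FPKM under DMSO, 1675 and 1427 FPKM at 24 h, and 1759 and 1371 FPKM at 48 h, so the drug-treated libraries were the lower ones but the replicates lay far apart. Replicate 1 was the higher in each of these pairs of ATP5E. Its log2 fold-change there was -0.32 at both times and did not pass (adjusted p = 0.26 at each), and the difference between the lines, -0.52 at 24 h (adjusted p = 0.19) and -0.70 at 48 h (adjusted p = 0.055), did not pass either. The gene overlaps the readthrough gene SLMO2-ATP5E, which was listed at 81.0 and 112.5 FPKM under DMSO and 27.1 and 26.4 FPKM at 48 h in COLO858, and reads of the pair may be split between them.

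In COLO858 after 48 h most members had fold-changes slightly below 0, and ATP5E and ATP5G1 passed the test. The median log2 fold-change was -0.20, with 64 of the 78 members below 0, beside -0.01 over all genes, of which 51.0% were below 0. Of the members 2 were called lower and none higher, where 4.73% of all genes were called lower and 4.74% higher. At an unadjusted p under 0.05 there were 16 lower and 1 higher, beside 20.5% and 18.8% of all genes. Relative to the median of all genes the members stood at -0.18, and with equal sums, where their own median turned to 0.047, they stood at -0.15 relative to it. The summed FPKM was 90.1% of DMSO for complex I, 82.0% for complex II, 78.5% for complex III, 88.4% for complex IV and 80.7% for complex V without ATP5E. Between 24 and 48 h no member passed the test in either direction in COLO858 (0.213% of all genes were called lower and 1.17% higher), with 15 lower and none higher at an unadjusted p under 0.05, beside 9.83% and 10.2% of all genes, and a median of -0.20.

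In MMACSF most members had fold-changes below 0 at 24 h, and 13 were called lower at 48 h, in every complex. At 24 h the median log2 fold-change was -0.30 (all 12599 genes tested, 0.07), 68 of the 78 members were below 0 (43.8% of all genes), and 1 was called lower, ATP5G1, where 3.6% of all genes were called lower and 2.22% higher. At an unadjusted p under 0.05 there were 30 lower and none higher, beside 16.5% and 19.5% of all genes. At 48 h the median was -0.44 (all genes, 0.06), 71 members were below 0, beside 45.1% of all genes, and 13 were called lower and none higher, where 5.41% of all genes were called lower and 3.42% higher. At an unadjusted p under 0.05 the counts at 48 h were 42 lower and none higher, beside 18.7% of all genes lower and 20.3% higher. At both times the comparison used the same DMSO libraries. Both 48 h libraries lay below both DMSO libraries for 56 of the 78 members, beside 28.8% of all genes. Relative to the median of all genes the members stood at -0.51, and at -0.50 to -0.51 under both other scalings. With the replicate number as a block in the fit, 29.5% of the members were called lower at 24 h, beside 13.0% of all genes. At 48 h that fit called 48.7% of them lower, beside 15.3% of all genes. What the replicate number marks is not labelled. With any 1 library left out, no member passed the threshold in any comparison within a line, and with only the 2 groups compared in the fit 1 member was called at 48 h in MMACSF and none in the other comparisons with DMSO, whereas the medians kept their sign except in COLO858 at 24 h. Between 24 and 48 h no member passed the test (0.111% of all genes were called in each direction), with 11 lower and none higher at an unadjusted p under 0.05, beside 4.33% and 2.64% of all genes, and a median of -0.22.

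**Figure D1:**
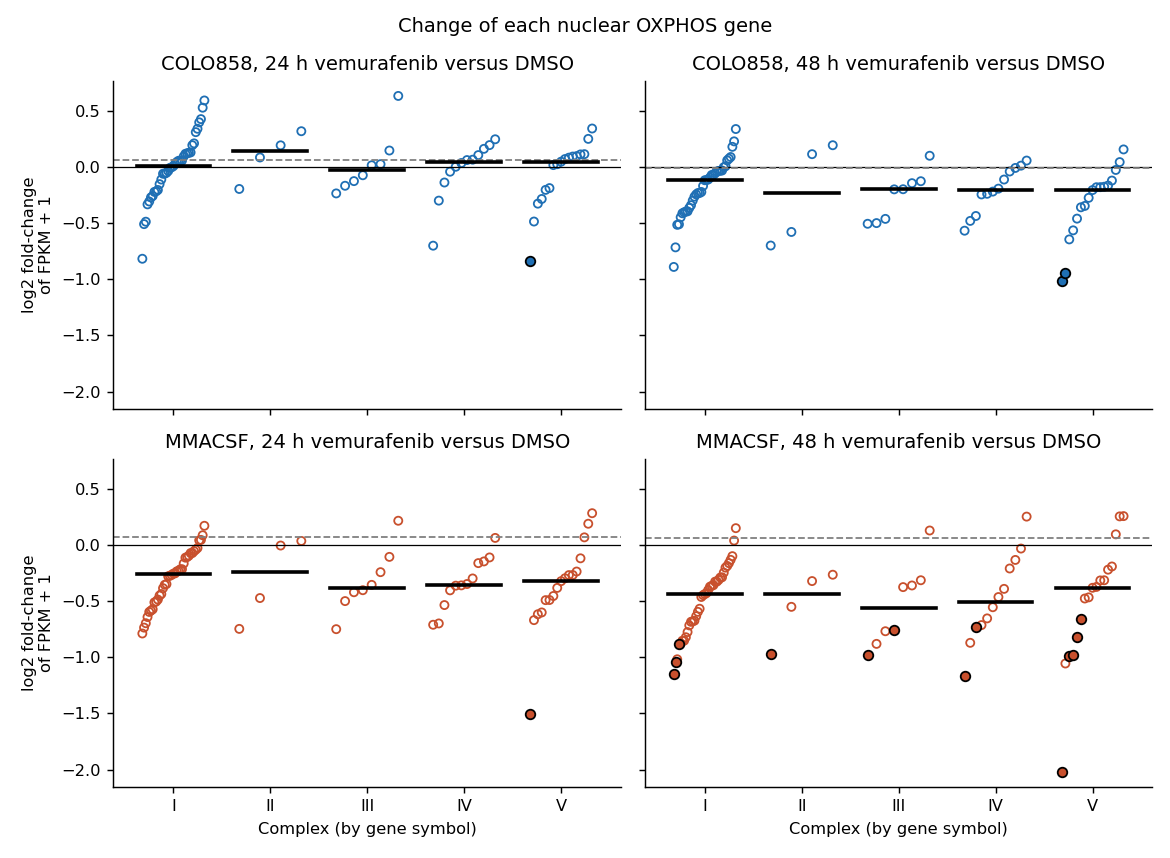
Log2 fold-change of FPKM + 1 for each of the 78 members by complex, in COLO858 (top, blue) and MMACSF (bottom, orange) after 24 h (left) and 48 h (right) of vemurafenib; points are genes in order of their change, filled points passed the test, thick bars are medians of a complex and the dashed line is the median of all genes tested. The COLO858 points centre near 0 at 24 h and at -0.20 at 48 h (0.047 with libraries set to equal sums), and the MMACSF points centre at -0.30 and -0.44, with 13 filled points at 48 h.

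The summed FPKM of every complex was below that under DMSO in MMACSF. At 48 h the summed FPKM was 70.0% of DMSO for complex I, 68.1% for complex II, 69.6% for complex III, 75.8% for complex IV and 68.8% for complex V. At 24 h these were 82.0%, 80.6%, 75.5%, 81.4% and 74.5%. The sum over all members in MMACSF went from 18185 and 16486 FPKM under DMSO to 14242 and 12922 FPKM at 24 h and 13003 and 11562 FPKM at 48 h. The DMSO libraries lay above the 4 drug-treated libraries, and the 24 h and 48 h libraries overlapped. The sums are given as values, with no test.

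**Figure D2:**
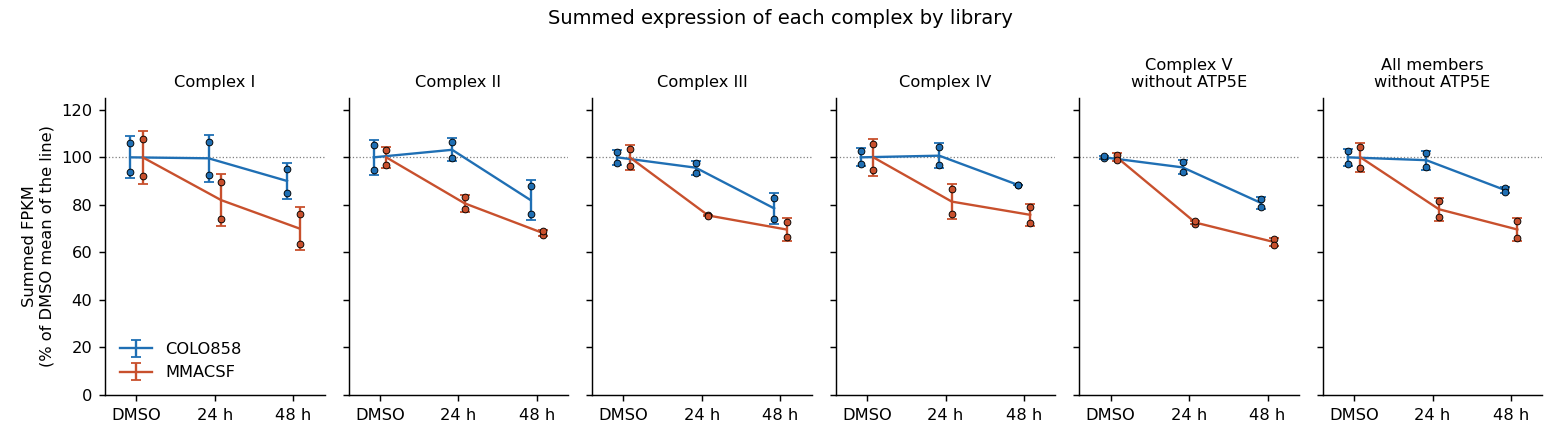
Summed FPKM of the members of each complex in each library, as a percentage of the DMSO mean of the same line, under DMSO and after 24 and 48 h of vemurafenib, with ATP5E left aside in the last 2 panels; points are libraries, lines join the means and bars are the SD of 2 libraries. MMACSF lies at 64.4% to 75.8% at 48 h in the 6 panels and COLO858 at 78.5% to 90.1%; with libraries set to equal sums COLO858 lies at 93.0% to 107% at 48 h.

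Among the 37 genes of complex I, 3 were called lower at 48 h in MMACSF, all of them for accessory subunits, and 35 of 37 were below 0. NDUFS5, an accessory subunit on the intermembrane face, went from 359 and 304 FPKM under DMSO to 221 and 187 FPKM at 24 h and 164 and 134 FPKM at 48 h in MMACSF (log2 fold-change at 48 h -1.15 ± 0.16, adjusted p = 0.0084). NDUFA12 stood at 69.5 and 71.9, 39.8 and 41.2, and 36.0 and 31.6 FPKM (-1.04 ± 0.12, adjusted p = 0.0045). NDUFA9, which sits where the 2 arms of the complex meet, stood at 51.8 and 53.4, 38.4 and 37.9, and 27.1 and 29.0 FPKM (-0.88 ± 0.11, adjusted p = 0.0054). In none of the 3 did the drug-treated libraries overlap with those under DMSO.

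The 7 core subunits of complex I measured here carry its flavin and iron-sulfur clusters, and none of them passed the test. Their median at 48 h was -0.37 in MMACSF and -0.22 in COLO858, beside -0.46 and -0.12 for the 30 accessory genes. NDUFS7, a core subunit next to the ubiquinone site, had the lowest fold-change of the complex in COLO858 (-0.89 ± 0.42, adjusted p = 0.18), with 109.5 and 87.0 FPKM under DMSO and 61.5 and 44.2 FPKM at 48 h. Both libraries at 48 h lay below both under DMSO. NDUFA10 and NDUFB1 had the highest fold-changes at 48 h, in MMACSF and COLO858 respectively. NDUFA10 went from 14.1 and 14.8 FPKM to 15.6 and 16.7 FPKM in MMACSF (0.15, adjusted p = 0.42), and NDUFB1 from 158 and 141 FPKM to 188 and 189 FPKM in COLO858 (0.34, adjusted p = 0.091). NDUFB2, the most abundant gene of the complex over the 12 libraries, had a log2 fold-change of 0.18 in COLO858 and -0.60 in MMACSF, and neither passed.

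In complex II, SDHB, the iron-sulfur subunit of succinate dehydrogenase, fell in MMACSF. It stood at 134 and 129 FPKM under DMSO, 81.6 and 74.6 FPKM at 24 h and 70.9 and 63.1 FPKM at 48 h, a log2 fold-change at 48 h of -0.97 ± 0.12 (adjusted p = 0.0054). In COLO858 it stood at 146 and 154 FPKM, then 135 and 126 FPKM, then 88.0 and 95.9 FPKM, and its log2 fold-change of -0.70 ± 0.12 just missed the threshold (adjusted p = 0.013). The groups did not overlap in either line. Of the membrane anchors, SDHD had -0.58 in COLO858 and -0.27 in MMACSF, and SDHC 0.19 and -0.32, none of which passed, and neither did the differences between the lines (-0.31, adjusted p = 0.58, and 0.51, adjusted p = 0.33).

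In complex III, UQCRC1 and UQCRFS1 fell in MMACSF. UQCRC1, a core protein of the matrix side, went from 164 and 138 FPKM to 90.7 and 87.6 FPKM at 24 h and 83.5 and 68.9 FPKM at 48 h (-0.98 ± 0.15, adjusted p = 0.0096). UQCRFS1, the Rieske iron-sulfur protein, went from 102 and 100.3 FPKM to 68.9 and 73.6 FPKM and then 61.9 and 57.3 FPKM (-0.76 ± 0.11, adjusted p = 0.0083). Both were also at their lowest at 48 h in COLO858, at 164 and 162 FPKM from 248 and 215 FPKM for UQCRC1 and at 109 and 111 FPKM from 160 and 154 FPKM for UQCRFS1. Those changes, of -0.50 and -0.51, did not pass (adjusted p = 0.040 and 0.025). UQCRH, the hinge protein and most abundant gene of the complex, had -0.46 in COLO858 and -0.36 in MMACSF, and UQCRB had 0.10 and 0.13.

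In complex IV, which reduces oxygen, COX7B and COX6C fell in MMACSF. COX7B, a small subunit at the membrane, stood at 289 and 325 FPKM under DMSO, 183 and 194 FPKM at 24 h and 133 and 139 FPKM at 48 h, the largest fall in the complex (-1.17 ± 0.11, adjusted p = 0.0030). In COLO858 it ranged from 483 to 721 FPKM over the 6 libraries with overlapping groups (-0.19 at 48 h, adjusted p = 0.49). COX6C went from 121 and 122 FPKM to 106 and 111 FPKM and then 71.7 and 74.0 FPKM in MMACSF (-0.73 ± 0.10, adjusted p = 0.0073). COX7C, the most abundant gene of the complex, stayed between 846 and 1001 FPKM in the 6 MMACSF libraries (-0.03 at 48 h). Of the genes in this group that do not name subunits, COX7A2L had 0.25 at 48 h in MMACSF and COX4NB -0.57 in COLO858, neither past the threshold.

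Complex V held 5 of the 13 calls at 48 h in MMACSF, and the largest change of all members was that of ATP5G1. In MMACSF it stood at 436 and 411 FPKM under DMSO, 134 and 165 FPKM at 24 h and 107 and 100.4 FPKM at 48 h. In COLO858 it stood at 346 and 338 FPKM, then 270.3 and 274 FPKM, then 168 and 186 FPKM. The groups were separate at each step in both lines. The log2 fold-change in MMACSF was -1.50 ± 0.14 (adjusted p = 0.0032) at 24 h and -2.02 ± 0.14 (adjusted p = 0.0011) at 48 h, and in COLO858 -0.33 ± 0.11 (adjusted p = 0.086) and -0.95 ± 0.11 (adjusted p = 0.0051). The level at 48 h was thus 0.245 times that under DMSO in MMACSF and 0.518 times in COLO858.

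The other c subunit genes did not pass the test. ATP5G2 stood at 528 and 485 FPKM under DMSO and 623 and 586 FPKM at 48 h in MMACSF (0.25 ± 0.11, adjusted p = 0.15), and between 308 and 360 FPKM in the 6 COLO858 libraries (0.04 at 48 h). ATP5G3 went from 87.5 and 114 FPKM to 41.4 and 54.5 FPKM in MMACSF (-1.06, adjusted p = 0.022) and from 87.2 and 126 FPKM to 56.3 and 88.5 FPKM in COLO858 (-0.57, adjusted p = 0.23), neither past the threshold. Under DMSO in MMACSF the levels of ATP5G1 and ATP5G2 per length were of the same order, and at 48 h ATP5G2 stood highest in both lines.

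**Figure D3:**
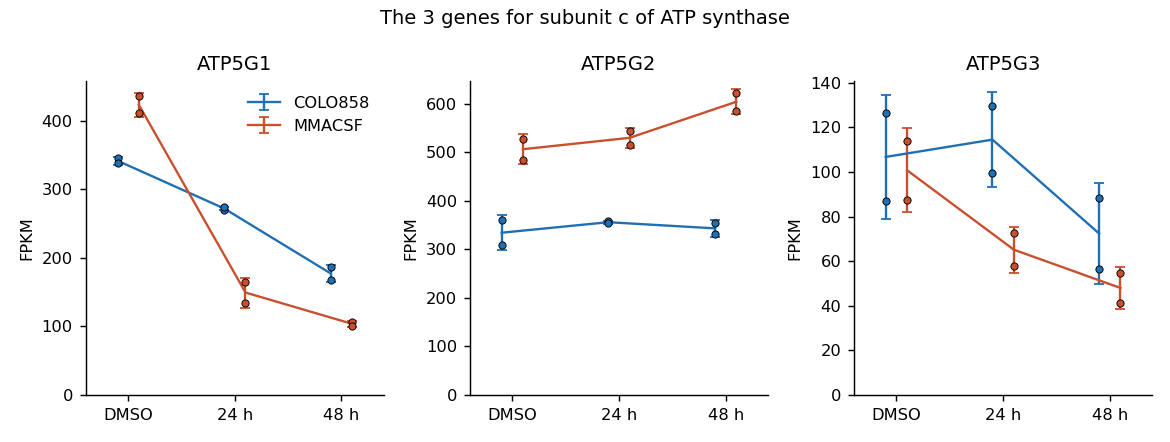
FPKM of ATP5G1, ATP5G2 and ATP5G3 in each library of COLO858 (blue) and MMACSF (orange) under DMSO and after 24 and 48 h of vemurafenib; points are libraries, lines join the means, bars are the SD of 2 libraries, and each panel has its own axis from 0. ATP5G1 drops to 100.4 and 107 FPKM at 48 h in MMACSF and to 168 and 186 FPKM in COLO858, ATP5G2 stays level in COLO858 and ends higher in MMACSF without passing the test, and the replicates of ATP5G3 lie far apart.

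The other 4 calls of complex V at 48 h in MMACSF were in the F1 head, the stalk and the membrane part. ATP5B, the catalytic beta subunit, went from 1456 and 1496 FPKM to 959 and 986 FPKM at 24 h and 747 and 748 FPKM at 48 h (-0.98 ± 0.10, adjusted p = 0.0035). ATP5C1, the central gamma shaft, went from 254 and 263 FPKM to 165 and 162 FPKM at 48 h (-0.66 ± 0.10, adjusted p = 0.0092), and ATP5J, the coupling factor 6 of the outer stalk, from 221 and 226 FPKM to 128 and 124 FPKM (-0.82 ± 0.10, adjusted p = 0.0052). ATP5J2, a small membrane subunit, went from 641 and 565 FPKM to 323 and 283 FPKM (-0.99 ± 0.14, adjusted p = 0.0085). All 4 had their 24 h libraries between those of DMSO and of 48 h. ATP5J2 shares its locus with the readthrough gene ATP5J2-PTCD1, whose FPKM ranged from 0.00213 to 12.7 over the 12 libraries. In COLO858 the changes at 48 h were -0.46 for ATP5B, -0.18 for ATP5C1, -0.21 for ATP5J and -0.35 for ATP5J2, none past the threshold.

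The response of the lines was then compared member by member, as the change in COLO858 minus the change in MMACSF. The median difference was 0.34 at 24 h, with 70 of the 78 members above 0, and 0.30 at 48 h, with 63 above 0, beside -0.01 and -0.04 over all 13595 genes tested, of which 48.7% and 46.4% were above 0. At 24 h 2 members passed the test, both higher in COLO858, where 1.78% of all genes passed in that direction, and at 48 h 1 did, where 4.19% of all genes passed. At an unadjusted p under 0.05 the counts were 26 higher and 2 lower at 24 h, beside 9.67% and 11.5% of all genes, and 23 higher and 1 lower at 48 h, beside 13.1% and 14.4%. With 1 library left out the count of calls was 0 to 1 at each time. ATP5G1 passed at both times, with a difference of 1.18 ± 0.16 (adjusted p = 0.0036) at 24 h and 1.07 ± 0.16 (adjusted p = 0.0031) at 48 h.

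NDUFA8, an accessory subunit of complex I with paired disulfides, was the other member that differed between the lines. It stood at 192 and 172 FPKM under DMSO and 282 and 244 FPKM at 24 h in COLO858, and at 212 and 189 FPKM and 134 and 132 FPKM in MMACSF. All libraries moved up in one line and down in the other. Neither change passed within its line (0.53, adjusted p = 0.040, and -0.59, adjusted p = 0.037), and the difference of 1.11 ± 0.18 did (adjusted p = 0.0074). At 48 h it stood at 177 and 169 FPKM in COLO858 and 121 and 100.3 FPKM in MMACSF, and the difference of 0.78 did not pass (adjusted p = 0.021). Across the 78 genes the changes of the lines correlated with a Pearson r of 0.36 at 24 h and 0.51 at 48 h, as a description over genes, which share libraries and are not replicates. Of the members 62 were below 0 in both lines at 48 h, and 33 at 24 h.

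**Figure D4:**
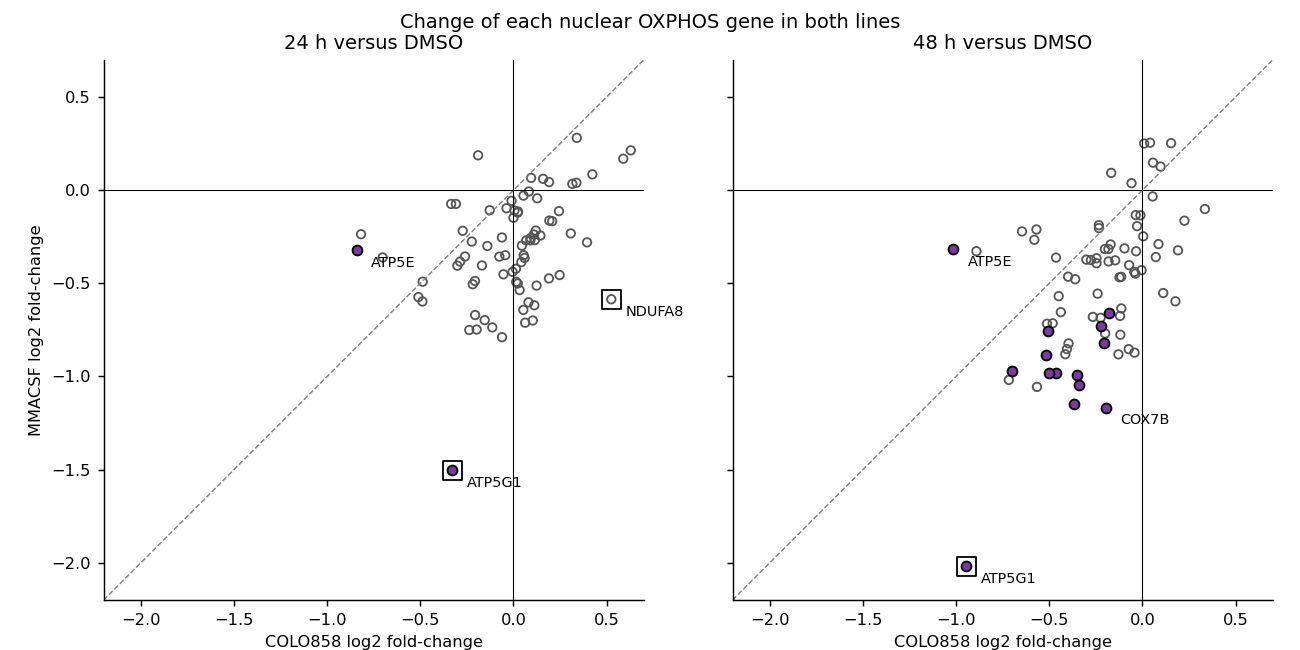
Log2 fold-change of FPKM + 1 of each member in COLO858 (horizontal) and MMACSF (vertical) after 24 h (left) and 48 h (right); filled points passed the test against DMSO in a line, squares mark a line difference that passed, and the dashed line marks equal change. Most points lie below the dashed line, 70 of 78 at 24 h and 63 of 78 at 48 h, and ATP5G1 lies lowest at both times.

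Among the genes for biogenesis factors, which drive the expression of mitochondrial genes, PPARGC1A had the largest change. PPARGC1A rose at 24 h in COLO858, from 5.98 and 8.16 FPKM to 26.0 and 34.6 FPKM (log2 fold-change 1.96 ± 0.23, adjusted p = 0.0047), and was back at 5.94 and 7.34 FPKM at 48 h. In MMACSF it stayed between 5.03 and 9.62 FPKM in all 6 libraries, and the difference between the lines at 24 h, 1.92 ± 0.35, just missed the threshold (adjusted p = 0.0125). NRF1, a transcription factor for many nuclear OXPHOS genes, fell at 24 h in COLO858 from 6.94 and 7.36 FPKM to 3.25 and 3.52 FPKM (-0.89, adjusted p = 0.0099) and stood at 6.48 and 6.16 FPKM at 48 h. PPRC1 fell at 24 h (-0.96) and PPARGC1B at 48 h (-1.07), both coactivators of the same family, and TFB1M, which modifies mitochondrial ribosomal RNA, fell at 48 h (-1.59), all in COLO858. Of the 19 biogenesis factors tested none passed the test in MMACSF at either time. At an unadjusted p under 0.05 there were 4 lower and 1 higher at 24 h, beside 16.5% and 19.5% of all genes. At 48 h there were 3 lower and 2 higher in MMACSF, beside 18.7% and 20.3% of all genes. At 24 h in COLO858 no member was called higher, beside 4.11% of all genes. With the replicate number as a block in the fit 10 were (12.8%, beside 23.2% of all genes). The part of PPARGC1A in the levels of the members was not tested.

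Of 8 subunits and partners outside the symbol rule 1 was called lower at 48 h in MMACSF, NDUFAB1, the mitochondrial acyl carrier protein and a complex I subunit, from 139 and 131 FPKM to 65.6 and 72.5 FPKM (-0.96, adjusted p = 0.0068), and 7 of 8 had fold-changes below 0, beside 45.1% of all genes. Of 50 assembly factors 2 were called lower at 48 h in each line, with a median of -0.33 in both, and this count is no more than the all-gene shares called lower (4.73% in COLO858 and 5.41% in MMACSF). NDUFAF2, which acts late in the assembly of complex I, fell in both (-1.15 in COLO858 and -1.29 in MMACSF), beside C7orf44 (now COA1) in COLO858 (-1.12) and NDUFAF4 in MMACSF (-1.06). Of 18 genes of the TCA cycle and pyruvate dehydrogenase 2 were called lower at 48 h in MMACSF, beside 5.41% of all genes. They were IDH3A (-1.22) and FH (-0.96), and 17 of the 18 were below 0, beside 45.1% of all genes. In COLO858 none of the 18 passed at 24 h or at 48 h. At an unadjusted p under 0.05 there were 3 higher and 2 lower at 24 h, beside 20.8% and 19.5% of all genes. At 48 h there were 4 lower, beside 20.5% of all genes.

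Genes of the mitochondrial ribosome, which translates the subunits of mitochondrial DNA, had a median of -0.56 in COLO858 and -0.44 in MMACSF at 48 h over 75 genes, with 3 lower and 1 higher called in COLO858 and 4 lower in MMACSF, close to the same all-gene shares of 4.73% and 5.41% lower. The largest falls were those of MRPS30 in COLO858 (-1.07) and MRPL13 in MMACSF (-1.10), and MRPS18A was the one called higher in COLO858 (0.75). Genes of the cytosolic ribosome had a median of -0.68 in COLO858 at 48 h, with 16 of 71 called lower, beside 4.73% of all genes. In MMACSF their median at 48 h was 0.11, with none of 72 called. At an unadjusted p under 0.05 there were 4 higher and 1 lower in MMACSF, beside 20.3% and 18.7% of all genes. RPL12 stood at 2395 and 2238 FPKM under DMSO and 1100 and 1079 FPKM at 48 h in COLO858 (-1.09, adjusted p = 0.0028), and at 2768 and 2473 and then 3211 and 2707 FPKM in MMACSF. At 48 h the median of the nuclear OXPHOS genes was lower in MMACSF, and that of the cytosolic ribosome lower in COLO858.

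**Figure D5:**
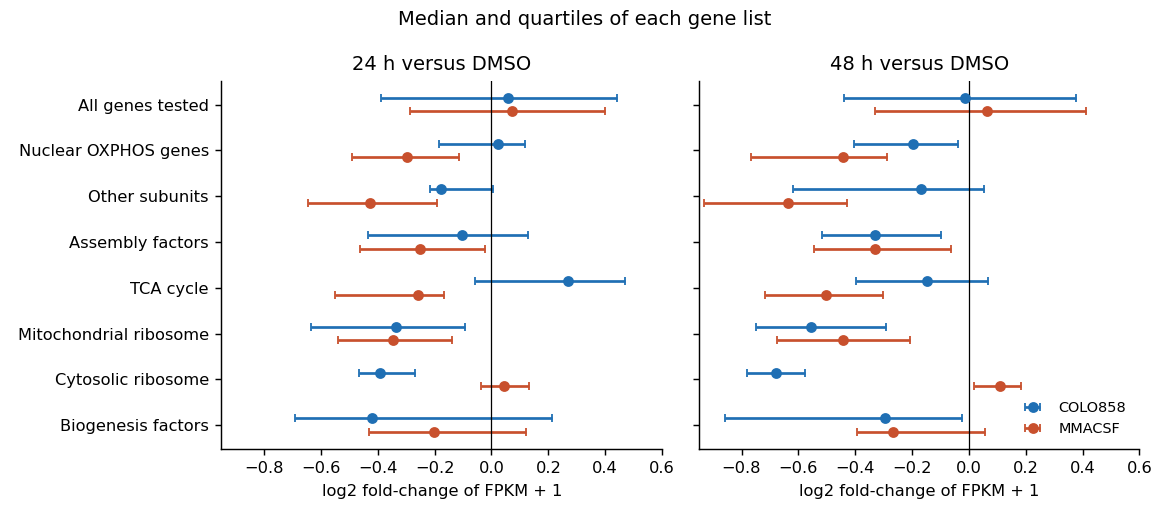
Median (points) and quartiles (bars) of the log2 fold-change of FPKM + 1 after 24 h (left) and 48 h (right) of vemurafenib for all genes tested, the nuclear OXPHOS genes and 6 other lists, in COLO858 (blue) and MMACSF (orange). The nuclear OXPHOS genes lie at -0.20 and -0.44 at 48 h and the cytosolic ribosome at -0.68 and 0.11; with libraries set to equal sums the COLO858 median of the nuclear OXPHOS genes is 0.047.

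Many members have pseudogenes, to which reads can also map. GENCODE names 185 pseudogenes after 47 of the 78 members, and 12 of the 13 members called lower at 48 h in MMACSF have at least 1. How the counting treated reads that map to several places is not given in the sources used here, and its part in the results was not tested.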

How the data were processed

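RNA-seq was performed on 12 libraries of COLO858 and MMACSF cells, 2 in each of 6 groups. The deposited values are FPKM per gene, which the authors obtained by aligning reads to hg19 with TopHat and running Cuffdiff; tool versions, annotation, the handling of reads that map to several places and the scaling between tables are not given in the sources used here. No counts were used, so depth and the counting error are unknown. Values were taken as log2(FPKM + 1), a scale that understates changes of low genes. Genes whose mean reached 1 FPKM in some group of the line were fitted with limma 3.58.1 in R 4.3.3, as 1 model of 3 groups per line with a mean-variance trend, and all 12 libraries together for the difference between lines (change in COLO858 minus change in MMACSF). P-values are two-sided, with Benjamini-Hochberg adjustment over all genes tested and a threshold of 0.01. The script was tested on simulated data. Tables and figures were made with Python 3.11.15, pandas 2.3.3, numpy 2.4.6 and matplotlib 3.10.9.

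The members and lists (subunits outside the rule, subunits of mitochondrial DNA, tissue-restricted isoforms, assembly factors, biogenesis factors, TCA cycle, both ribosomes, MAPK output, melanocyte and other cell markers) were chosen with earlier results of these data known. Named genes were, in each line and at each time against DMSO, the 3 members with the largest rise and the 3 with the largest fall past the threshold; in each complex the member with the highest mean FPKM, and in each complex and line those with the largest and the smallest log2 fold-change at 48 h; restricted isoforms among the members; the 5 largest line differences past the threshold; biogenesis factors past the threshold and PPARGC1A; and the largest rise and fall past the threshold in each other list. NDUFA12, NDUFA9, COX6C, ATP5B, ATP5C1, ATP5J, ATP5J2, ATP5G3, FH and NDUFAF4 were named after their values were seen. Alternatives were other constants, minimums, thresholds, scalings and fits, and the fit without each library.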

Additional observations from a re-analysis of the deposited data

Results flagged for a closer look

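In 4 cases the effect of the drug differed between the lines by the test of the difference itself (limma, Benjamini-Hochberg adjustment over all genes). The change in ATP5G1 was 1.18 higher in COLO858 than in MMACSF at 24 h on the log2 scale (adjusted p = 0.0036) and 1.07 higher at 48 h (adjusted p = 0.0031), and all 4 drug-treated libraries of each line lay below its DMSO libraries. The change in NDUFA8 was 1.11 higher in COLO858 at 24 h (adjusted p = 0.0074), with both libraries above DMSO in COLO858 and both below it in MMACSF. For RPL12, a cytosolic ribosomal protein, the difference at 48 h was -1.26 (adjusted p = 0.0020), with both libraries below DMSO in COLO858.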

How the results depend on the processing

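The medians of the members kept their direction under every alternative in MMACSF and for the line differences at 24 and 48 h against DMSO, while the counts of calls moved with the fit. With libraries set to equal sums without small RNA genes, the median in COLO858 was 0.23 at 24 h and turned to 0.047 at 48 h, with 1 call at 48 h, and was -0.16 between the times; it was -0.25 at 24 h in MMACSF, and the line difference was 0.50 at both times, with 6 calls at 48 h. Under the same scaling the sum over all members in COLO858 was 107% of DMSO at 24 h and 96.5% at 48 h, that of complex I 115% and 107%, that of complex III 110.4% at 24 h and that of complex IV 105% at 48 h. With median-ratio scaling the median was -0.12 in COLO858 between the times and -0.37 at 24 h in MMACSF, with 3 calls there and 4 for the line difference at 48 h, and the sum in COLO858 was 89.4% at 24 h. Without ATP5E, an alternative chosen after seeing the data, the sums in COLO858 were 98.8% and 86.3%; leaving out the 4 members that are not subunits, also chosen after seeing the data, moved no count of calls by over 1.5 times. With only the compared groups fitted there were 0 calls in COLO858 at 24 and at 48 h, 0 in MMACSF at 24 h and 1 at 48 h, and 0 for the line difference at 24 h. With no minimum there were 0 at 24 h in COLO858, with robust fitting 3 at 24 h in MMACSF, and with no variance trend 7 at 48 h in MMACSF. At a threshold of 0.05 the calls were 3, 8 and 1 in COLO858 (24 h, 48 h and between the times), 16 and 27 in MMACSF (24 and 48 h) and 7 and 10 for the line differences. The shares of all genes called under these settings are not given here. Without those shares, the counts under these settings cannot be compared with those of other genes. The cause was not tested in any of these cases.

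With the replicate number as a block, the calls were 15, 24 and 21 in COLO858 (24 h, 48 h and between the times), 23 and 38 in MMACSF (24 and 48 h), and 27, 28 and 4 for the line differences (24 h, 48 h and between the times). The members called lower in this fit were 6.41%, 29.5% and 26.9% in COLO858, beside 21.8%, 23.3% and 8.83% of all genes, and 29.5% and 48.7% in MMACSF, beside 13.0% and 15.3%. Those called higher were 12.8%, 1.28% and 0.0% in COLO858, beside 23.2%, 20.4% and 9.13% of all genes. None were called higher in MMACSF, beside 13.1% and 14.8%. Of the line differences 33.3%, 34.6% and 2.56% were higher, beside 8.98%, 13.0% and 7.62% of all genes. Another 1.28%, 1.28% and 2.56% were lower, beside 8.64%, 12.2% and 5.43%. The samples share only a number, with 2 per group: deviations of same-numbered libraries correlated at 0.196 to 0.211 in COLO858 and 0.0628 to 0.113 in MMACSF over all genes, and at 0.753 to 0.779 and 0.590 to 0.673 without small RNA genes.

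With 1 library left out, the count of calls was 0 in each comparison within a line and for the line difference between the times, and 0 to 1 for the line differences at 24 h and at 48 h. The median ranged from -0.02 to 0.03 (24 h), -0.26 to -0.15 (48 h) and -0.26 to -0.17 (between the times) in COLO858. In MMACSF it ranged from -0.43 to -0.24, -0.58 to -0.42 and -0.26 to -0.13. The line difference ranged from 0.29 to 0.41, 0.19 to 0.35 and -0.086 to 0.030. With 2 libraries a group and no read counts, the depth behind each value is unknown.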
